A study of Phaseolus vulgaris with 12 samples.

Results

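The module described here holds the loci of common bean (Phaseolus vulgaris) that are annotated to DNA replication or described as histones, cyclins, cyclin-dependent kinases or ribonucleotide reductase. A locus was a member if the authors' KEGG pathway column listed DNA replication, or if its gene description contained one of those words. This rule gave 232 of the 22542 loci in the deposited table, 119 through the pathway column and 113 through the description words, with 0 through both. The rule itself used annotation only.

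RNA sequencing was done on the true leaves of the cold-tolerant variety 120 and the cold-sensitive variety 093. Plants in the cold groups spent 3 days in an incubator at 4 °C, whereas control plants stayed on the culture rack without cold, and both had 12 h of light per day. Cold and place therefore cannot be told apart. The 12 libraries form the groups 120 cold, 120 control, 093 cold and 093 control, with 3 libraries each. Each variety and treatment had 3 pots sown with 4 seeds each. The labels do not tie a library to its own pot or plant, so the p-values measure spread between libraries that could be technical replicates. Both varieties are given by number only, and no mutant or transgene is involved.

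Before a cell divides it copies its DNA once. MCM proteins form the ring-shaped helicase that opens the double helix, replication protein A (RPA) coats the exposed single strands, and ribonucleotide reductase makes the deoxynucleotides. The clamp loader replication factor C (RFC) places the sliding clamp PCNA on DNA to hold the polymerases, and exonucleases and ligases join the finished fragments. New histones package the copied DNA. Cyclins switch on cyclin-dependent kinases (CDKs), which drive the steps of the cycle, and CDK inhibitors hold them back. In leaves these genes are best known from the young, dividing stage, and full-grown leaf cells mostly no longer divide.

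The deposited values are FPKM, fragment numbers scaled by the authors to transcript length and to the mapped fragments of a library. They summed to between 313320 and 350100 per library, and the members held between 0.392% and 0.489% of that sum. The read totals behind them are not known, and counting error is not given. Leaf photosynthesis genes, used to check the tissue, were abundant: 28 of 29 loci reached 1 FPKM, and their summed level lay between 6512 and 11025 FPKM in 120 cold, against 26805 and 30923 FPKM in 120 control. In 093 cold it lay between 8746 and 9472 FPKM, against 22980 and 33982 FPKM in 093 control. Loci matched by description words for other tissues were also present, 16 of 20 phloem and xylem loci and 4 of 6 guard cell loci reaching 1 FPKM. Such word matches are not established markers, and their sums do not measure cell content. The guard cell list was led by SLAC1 homologue 3, and the nodule and root list by a Nodulin MtN3 family protein. The summed phloem and xylem level lay between 118 and 262 FPKM in 120 cold, against 67.2 and 85.1 FPKM in 120 control. In 093 cold it was 189 to 202 FPKM, against 90.8 to 107 FPKM in 093 control. Guard cell loci summed to 67.6 to 81.7 FPKM in 120 cold, against 5.59 to 8.26 FPKM in 120 control. They summed to 23.7 to 25.8 FPKM in 093 cold, against 7.08 to 11.4 FPKM in 093 control. Nodule and root loci, 60 of 99 at 1 FPKM, summed to 704 to 727 FPKM in 120 cold, against 926 to 987 FPKM in 120 control. They summed to 981 to 1037 FPKM in 093 cold, against 697 to 910.4 FPKM in 093 control. Seed storage and cotyledon loci, 26 of 69 at 1 FPKM, summed to 305 to 413 FPKM in 120 cold, against 336 to 376 FPKM in 120 control. They summed to 323 to 366 FPKM in 093 cold, against 227 to 523 FPKM in 093 control. Their part in the results was not tested. In such bulk samples, fewer cells of a type and less RNA per cell cannot be told apart.

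Of the 232 members, 138 reached 1 FPKM in at least 3 libraries and were tested. The other 94 were too low, and 71 of them stayed under 1 FPKM in every library. Of the tested members, 14 reached 1 FPKM in cold libraries only and 5 in control libraries only. Those members passed the filter through 1 condition alone, so their selection was not independent of their change under cold. A locus was called when limma, fitted to all 14716 loci that passed this filter, gave a Benjamini-Hochberg adjusted p under 0.05 and the log2 change on log2(FPKM + 1), a scale that understates changes of low loci, was 1 or more in size. Rose and fell are used below for called loci only, n is 3 libraries per group, and values after ± are SDs.

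Under cold, 31 tested members rose and 18 fell in 120, where 46.4% of all tested loci were called, 27.8% higher and 18.6% lower. In 093, 41 rose and 14 fell, where 48.2% of all tested loci were called, 33.0% higher and 15.2% lower. The shares of members called, 22.5% higher and 13% lower in 120 and 29.7% higher and 10.1% lower in 093, were thus somewhat below the background in both varieties. The module as a whole did not move as a block. Its median log2 change was 0.22 in 120 and 0.47 in 093, next to 0.18 and 0.43 over all tested loci. Median-ratio scaling shifted the all-loci medians by -0.15 in 120 and by -0.35 in 093, and quantile normalization shifted them by -0.22 and -0.43. The share of members' calls that were higher was 63.3% in 120 and 74.5% in 093 as deposited, 57.4% and 61.5% after median-ratio scaling, and 51.2% and 52.7% after quantile normalization. With no filter on low values, 32 of the 232 members were called higher and 19 lower in 120. In 093 that fit called 41 higher and 15 lower.

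The members differed by role, as grouped after their values were seen. The replication machinery, as sorted by description, covers MCM, ribonucleotide reductase, clamp, clamp loader, single-stranded DNA binding, polymerases, primer removal and ligation. Some of its loci have general descriptions only. The OB-fold locus MSTRG.3922 and the P-loop hydrolase Phvul.007G235800 are such loci, and both are among the rises below. MSTRG.3054, with an aminopeptidase and a polymerase description, is also counted. These classes came to 65 members. In both varieties, 16 of the 40 tested ones rose and 4 fell, with medians of 0.57 in 120 and 0.71 in 093. Some of the rises were of loci that reached 1 FPKM in cold libraries only and passed the filter through them. The machinery's share of rises, 40% in each variety, stood above the shares over all tested loci, and its share of falls below. After median-ratio scaling these counts were 15 and 4 in 120 and 13 and 4 in 093, and after quantile normalization 12 and 4 in 120 and 13 and 7 in 093. Cyclins were split, with 2 rising and 5 falling of 23 tested in 120, and 5 rising and 5 falling in 093, where median-ratio scaling gave 4 and 6 and quantile normalization 2 and 8. As deposited, cyclin rises were 8.7% in 120 and 21.7% in 093, and cyclin falls 21.7% in each. Among 11 tested core histones, 2 (18.2%) rose in each variety, or 1 in each after median-ratio scaling or quantile normalization. Another 65 members had descriptions of other functions and carried the pathway entry or a matching word only. Of their 49 tested loci, 120 had 7 rises and 7 falls, and 093 had 13 rises and 3 falls.

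**Figure D1:**
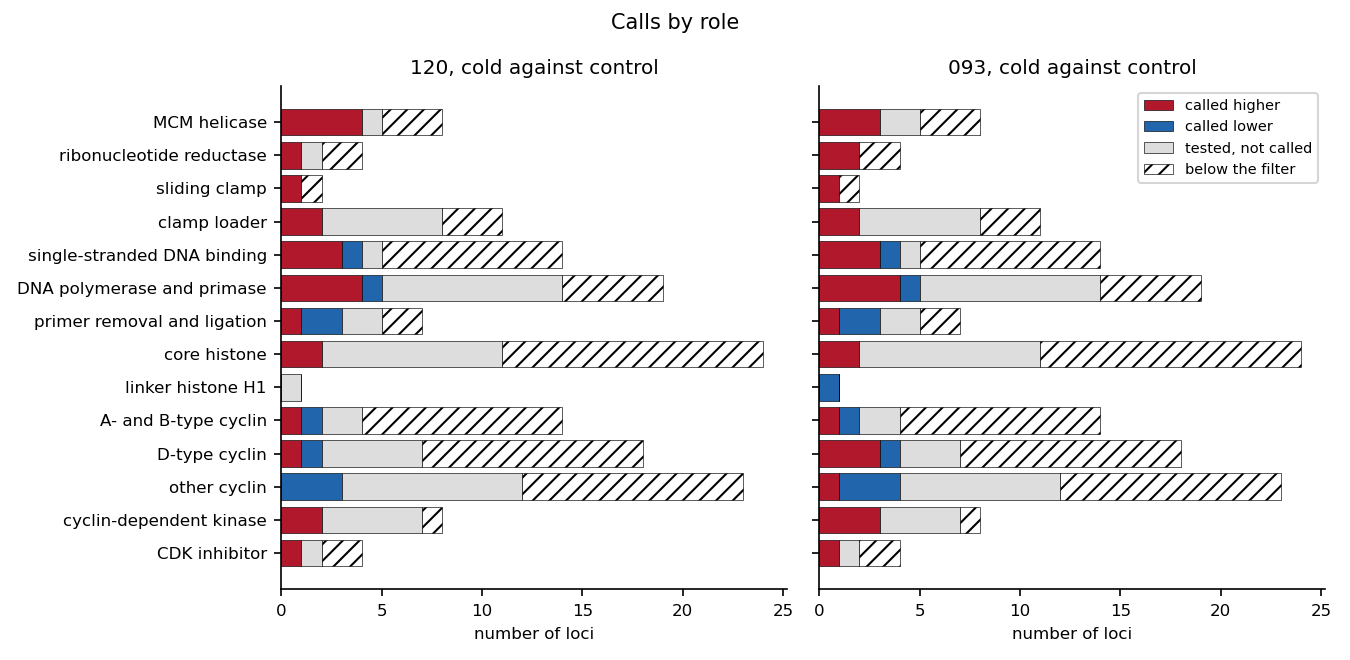
Number of loci per role (horizontal axis) called higher, called lower, tested without a call, or below the filter, in 120 (left) and 093 (right), each as cold against control. MCM loci show 4 rises in 120 and 3 in 093 of 5 tested, whereas cyclins outside the A, B and D types show 3 falls in each variety of 12 tested.

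Each variety's change was measured against its own controls. Of the calls, 25 members rose in both varieties, which is 80.6% of the rises in 120 and 61.0% of those in 093. Another 11 fell in both, 61.1% of the falls in 120 and 78.6% of those in 093. No member was called in opposite directions, and 1 had opposite signs with an unadjusted limma p under 0.05 in both, Phvul.008G158000, which has no description, at -0.78 in 120 and 0.52 in 093. A call in 120 only was found for 13 members and a call in 093 only for 19, of which 7 and 9 also passed the test of the difference between the responses. The matching shares over all tested loci were not computed, so this overlap is not shown to be particular to the members.

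**Figure D2:**
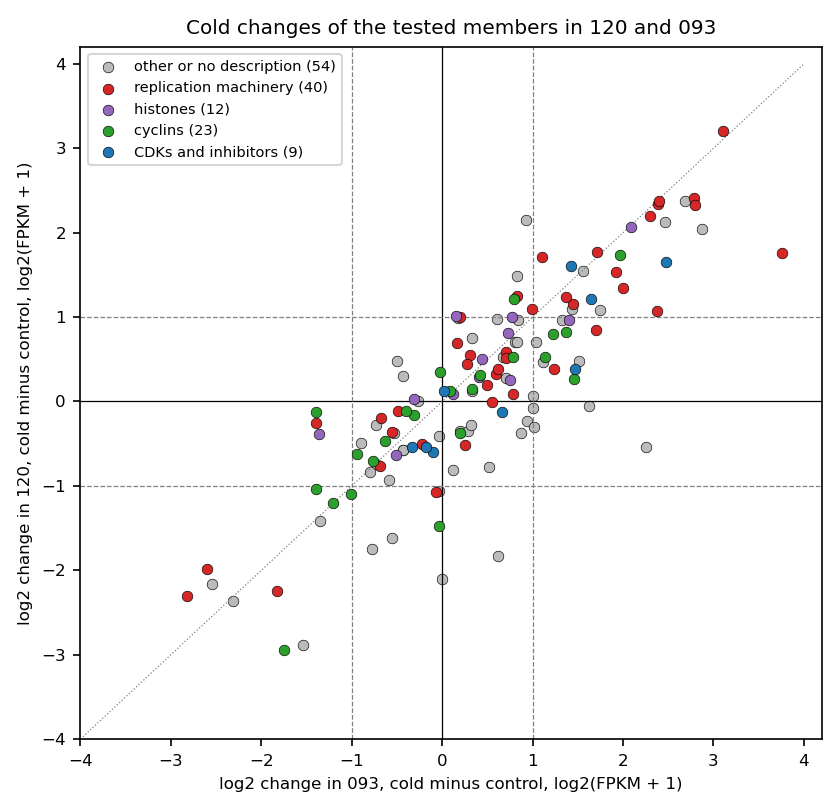
Log2 change under cold on log2(FPKM + 1) in 093 (horizontal axis) and in 120 (vertical axis) for the 138 tested members, coloured by role, with dashed lines at 1 and -1 and a dotted line of equal change. Replication machinery loci make up most points at the upper right, and RPA 1A, a DNA ligase 1 locus and cyclin A1;1 lie at the lower left.

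Of the 5 tested MCM helicase loci, 4 rose in 120, where 27.8% of all tested loci did, and 3 in 093, where 33.0% did. Their median log2 changes were 1.71 in 120 and 1.10 in 093. Without 120 cold library 3 the median in 120 was 1.11. Their names do not tell which of the ring's subunits each encodes. Phvul.011G041300 had 4.97, 4.94 and 10.2 FPKM in 120 cold, against 0.360, 0.794 and 0.250 FPKM in 120 control. It had 3.94, 4.74 and 4.68 FPKM in 093 cold, against 0.00669, 0.0379 and 0.0705 FPKM in 093 control. Every cold library lay above every control library of its variety. The log2 change was 2.34 (SE 0.24, adjusted p = 3.1e-06) in 120 and 2.39 (SE 0.24, adjusted p = 2.4e-06) in 093. Phvul.003G116100 stood at 2.37, 2.44 and 4.95 FPKM in 120 cold, against 0.125, 0.356 and 0.144 FPKM in 120 control, and at 2.73, 2.81 and 2.83 FPKM in 093 cold, against 0.233, 0.0595 and 0.194 FPKM in 093 control. Again the groups did not overlap. It rose by 1.77 (SE 0.20, adjusted p = 9.5e-06) in 120 and by 1.71 (SE 0.20, adjusted p = 1.2e-05) in 093 on the log2 scale. Phvul.001G212600 averaged 4.50 ± 4.27 FPKM in 120 cold and 0.431 ± 0.382 FPKM in 120 control, with 1.24 ± 0.147 FPKM in 093 cold and 0.0393 ± 0.00148 FPKM in 093 control. This locus rose by 1.71 (SE 0.39, adjusted p = 0.002) in 120 and by 1.10 (SE 0.39, adjusted p = 0.024) in 093. Without 120 cold library 3 its rise in 120 was 1.11 (SE 0.19, adjusted p = 0.0004). The call in 093 was fragile, ending under median-ratio scaling (0.97), under quantile normalization (0.73), without 093 cold library 2 (1.05, adjusted p = 0.062), without 093 cold library 3 (1.12, adjusted p = 0.051), without 093 control library 1 (1.10, adjusted p = 0.052), without 093 control library 2 (1.10, adjusted p = 0.053) and without 093 control library 3 (1.11, adjusted p = 0.051). The locus Phvul.009G245600 changed by 1.10 (SE 0.30, adjusted p = 0.006) in 120 and by 0.99 (SE 0.30, adjusted p = 0.011) in 093, just inside and just outside the threshold of 1. The last of the 5 tested loci, Phvul.002G194200, was not called, with changes of 0.33 and 0.60 in 120 and 093. Below the filter, Phvul.003G175800 had 0.866, 0.664 and 3.42 FPKM in 120 cold, against 0, 0.465 and 0.158 FPKM in 120 control. In 093 it had 0.786, 0.703 and 0.794 FPKM under cold, against 0.0407, 0.192 and 0.160 FPKM without, so that it too was higher in each cold library than in the controls of its variety. The remaining MCM loci are named MCM8 and MCM9, relatives outside the replicative ring, and reached at most 1.16 FPKM in any library. Phvul.009G245600, Phvul.002G194200 and Phvul.003G175800 were chosen after their values were seen.

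One library stood apart in these loci. All 8 MCM loci together summed to 12.5, 11.9 and 35.1 FPKM in the 120 cold libraries, so library 3 stood far above the other libraries of its group. The sums were 1.99, 4.19 and 2.10 FPKM in 120 control. In 093 they were 12.5, 13.4 and 13.2 FPKM under cold, against 1.49, 1.38 and 1.93 FPKM without. Of the 40 tested machinery loci, 30 (75.0%) had their highest 120 cold value in library 3, where 41.7% of all tested loci did. Polymerase and primase loci summed to 50.0, 45.4 and 77.1 FPKM in the 120 cold libraries. Without 120 cold library 3, 14 machinery loci rose and 4 fell in 120, 3 MCM loci rose, and the members counted 33 higher and 20 lower. The call of the MCM locus Phvul.009G245600 in 120 ended under quantile normalization (0.89) and without 120 cold library 3 (0.64). The labels record nothing that separates this library from the other 120 cold libraries.

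**Figure D3:**
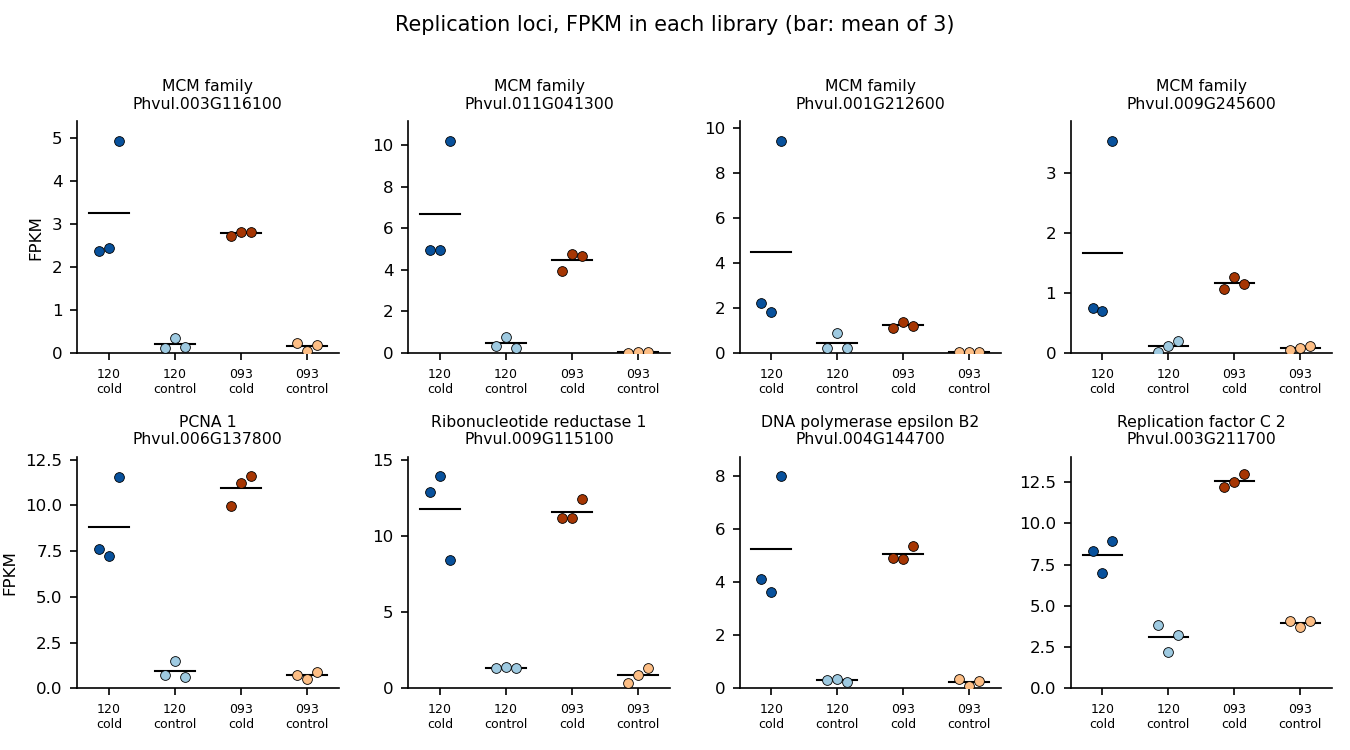
FPKM (vertical axis, linear, own scale per panel) of 8 replication loci in each library of 120 cold, 120 control, 093 cold and 093 control, with bars at group means. The 8 loci shown were all called higher in at least 1 variety, so they do not stand for the replication loci in general. In all 8 panels the cold points lie above the controls of the same variety. The 120 cold library 3 (rightmost point of its group) is the highest of its group in each panel but that of ribonucleotide reductase 1.

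Of 2 tested loci for ribonucleotide reductase, 1 rose in 120 and both in 093, against 27.8% and 33.0% over all tested loci. Ribonucleotide reductase 1, the large subunit of the enzyme, was represented by a pair of loci. Phvul.009G115100 had 12.9, 14.0 and 8.47 FPKM in 120 cold, against 1.34, 1.41 and 1.33 FPKM in 120 control. In 093 the values were 11.2, 11.2 and 12.4 FPKM under cold, against 0.369, 0.893 and 1.36 FPKM without. Here 120 cold library 3 was the lowest of its group, and all cold libraries were still far above the controls. The rise was 2.41 (SE 0.21, adjusted p = 1.0e-06) in 120 and 2.78 (SE 0.21, adjusted p = 3.1e-07) in 093. The more abundant Phvul.002G267900 averaged 12.6 ± 0.313 FPKM in 120 cold and 6.56 ± 0.513 FPKM in 120 control. It averaged 20.5 ± 1.19 FPKM in 093 cold and 5.65 ± 1.10 FPKM in 093 control. It rose by 1.70 (SE 0.13, adjusted p = 3.2e-07) in 093 and was not called in 120, at 0.85 (SE 0.13, adjusted p = 1.0e-04). The difference of these responses, -0.85, was not called either. Both loci described as ferritin or ribonucleotide reductase-like stayed under 1 FPKM in every library.

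PCNA 1 (Phvul.006G137800), the sliding clamp, had 7.60, 7.25 and 11.5 FPKM in 120 cold, against 0.709, 1.5 and 0.642 FPKM in 120 control. It had 9.94, 11.2 and 11.6 FPKM in 093 cold, against 0.749, 0.520 and 0.898 FPKM in 093 control. The groups were far apart in both varieties. Its log2 change was 2.33 (SE 0.21, adjusted p = 1.1e-06) in 120 and 2.80 (SE 0.21, adjusted p = 2.3e-07) in 093. The other PCNA locus, Phvul.008G283900, stayed under 1 FPKM everywhere. Of 8 tested clamp loader loci, 2 (25%) rose in each variety, against 27.8% in 120 and 33.0% in 093 over all tested loci. RFC2 (Phvul.003G211700), a small subunit, averaged 8.07 ± 0.995 FPKM in 120 cold and 3.09 ± 0.819 FPKM in 120 control, and rose by 1.16 (SE 0.16, adjusted p = 3.5e-05). It averaged 12.6 ± 0.379 FPKM in 093 cold and 3.98 ± 0.226 FPKM in 093 control, and rose by 1.45 (SE 0.16, adjusted p = 5.5e-06). Its call in 120 ended under quantile normalization (0.91) and without 120 control library 2 (just short of 1.0). Phvul.007G235800, a P-loop hydrolase under the same pathway entry, rose by 1.53 (SE 0.14, adjusted p = 1.9e-06) in 120 and by 1.92 (SE 0.14, adjusted p = 2.8e-07) in 093. The other 6 tested loci, among them RFC1, RFC subunit 3 and RAD17, which loads a checkpoint clamp, were not called, with log2 changes between -0.50 and 1.0 in 120 and between -0.55 and 0.71 in 093. Phvul.008G283900, Phvul.007G235800 and these 6 loci were chosen after their values were seen.

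RPA is built of subunits of different size, and its loci moved in opposite directions. The replicon protein A2 locus Phvul.001G058500, the middle subunit, had 20.2, 18.9 and 25.9 FPKM in 120 cold, against 2.06, 0.765 and 1.65 FPKM in 120 control. It had 15.4, 13.9 and 14.4 FPKM in 093 cold, against 0.914, 0.307 and 1.32 FPKM in 093 control. Each cold library exceeded each control library by a wide margin. With log2 changes of 3.21 (SE 0.24, adjusted p = 2.9e-07) in 120 and 3.11 (SE 0.24, adjusted p = 3.5e-07) in 093, it had the largest rise of all members in 120. RPA 1A (Phvul.009G228500), a form of the large subunit, had 0.244, 0.303 and 1.37 FPKM in 120 cold, against 7.09, 6.65 and 6.46 FPKM in 120 control. In 093 it had 0.778, 0.949 and 0.947 FPKM under cold, against 10.5, 11.2 and 16.1 FPKM without. Here the cold libraries were the low ones, with no overlap. RPA 1A fell, with log2 changes of -2.30 (SE 0.24, adjusted p = 3.7e-06) in 120 and -2.82 (SE 0.24, adjusted p = 6.5e-07) in 093. The other A2 locus, Phvul.003G145200, was not called, at 0.45 and 0.27 in 120 and 093. A mitochondrially targeted single-stranded DNA-binding protein (Phvul.007G199200) rose by 1.24 (SE 0.22, adjusted p = 0.00032) in 120 and by 1.37 (SE 0.22, adjusted p = 0.00014) in 093. Its call in 120 ended under quantile normalization (0.98) and without 120 control library 2 (just short of 1.0), and that in 093 under median-ratio scaling (0.97) and under quantile normalization (0.95). The other 9 of 14 single-stranded DNA-binding loci were below the filter, 7 of them under 1 FPKM everywhere. Phvul.003G145200 and Phvul.007G199200 were chosen after their values were seen.

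MSTRG.3922, an OB-fold nucleic acid-binding protein under the replication entry, rose in both varieties by different amounts. It had 4.99, 5.82 and 10.9 FPKM in 120 cold, against 1.3, 0.891 and 1.89 FPKM in 120 control. It had 23.0, 18.4 and 23.6 FPKM in 093 cold, against 0.497, 0.665 and 0.846 FPKM in 093 control. The 093 cold libraries were the highest, and the 120 cold libraries lay between them and the controls. The log2 change was 1.76 (SE 0.25, adjusted p = 5.4e-05) in 120 and 3.76 (SE 0.25, adjusted p = 1.0e-07) in 093, and the difference, 120 minus 093, was -2.0 (SE 0.35, adjusted p = 0.0017).

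Among 14 tested polymerase and primase loci, 4 rose and 1 fell in each variety, though not the same 4. The share of rises, 28.6%, stood near the 27.8% over all tested loci in 120 and below the 33.0% in 093. DNA polymerase epsilon subunit B2 (Phvul.004G144700), part of the leading-strand enzyme, had 4.11, 3.63 and 8.01 FPKM in 120 cold, against 0.313, 0.343 and 0.237 FPKM in 120 control. It had 4.90, 4.89 and 5.38 FPKM in 093 cold, against 0.334, 0.105 and 0.259 FPKM in 093 control. It was barely present without cold in either variety, and it rose by 2.20 (SE 0.22, adjusted p = 2.6e-06) in 120 and 2.30 (SE 0.22, adjusted p = 1.7e-06) in 093. The epsilon catalytic subunit (Phvul.011G091900) averaged 4.63 ± 1.12 FPKM in 120 cold and 3.25 ± 0.493 FPKM in 120 control, and was not called at 0.39. It averaged 4.42 ± 0.259 FPKM in 093 cold and 1.3 ± 0.247 FPKM in 093 control, and rose by 1.24 (SE 0.17, adjusted p = 3.2e-05), a call that ended under median-ratio scaling (0.92) and under quantile normalization (0.84). DNA polymerase alpha 2 (Phvul.001G259300), of the complex that starts each strand, averaged 3.69 ± 1.16 FPKM in 120 cold and 0.937 ± 0.162 FPKM in 120 control and rose by 1.25 (SE 0.17, adjusted p = 3.2e-05). In 093 it averaged 1.04 ± 0.0963 FPKM under cold and 0.148 ± 0.0589 FPKM without, a change of 0.83 that was not called. Both delta small subunit loci and recovery protein 3, the catalytic subunit of a polymerase that copies past damaged bases, were not called in either variety. A locus described only as a DNA-directed DNA polymerase (Phvul.005G080800) rose by 1.34 (SE 0.23, adjusted p = 0.00028) in 120 and by 2.0 (SE 0.23, adjusted p = 1.0e-05) in 093. The epsilon catalytic, alpha 2, delta, recovery protein 3 and Phvul.005G080800 loci were chosen after their values were seen.

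Polymerase gamma 2, named after an organellar DNA polymerase of Arabidopsis, was present as 2 loci. Phvul.006G039400 had 4.17, 4.25 and 6.57 FPKM in 120 cold, against 1.77, 1.26 and 2.56 FPKM in 120 control. It had 14.4, 12.9 and 14.4 FPKM in 093 cold, against 2.0, 1.36 and 2.44 FPKM in 093 control. The 093 cold libraries stood above every other library. It rose by 1.07 (SE 0.21, adjusted p = 0.00074) in 120 and by 2.37 (SE 0.21, adjusted p = 1.1e-06) in 093, and the difference was -1.3 (SE 0.30, adjusted p = 0.0075). Its call in 120 ended under median-ratio scaling (0.92), under quantile normalization (0.82), without 120 cold library 3 (0.89) and without 120 control library 2 (0.91), while the difference stayed called without 120 cold library 3, at -1.48 (adjusted p = 0.0028). The more abundant Phvul.008G265700 averaged 10.1 ± 3.44 FPKM in 120 cold and 14.3 ± 0.847 FPKM in 120 control. It averaged 15.2 ± 0.764 FPKM in 093 cold and 12.7 ± 1.70 FPKM in 093 control, and was called in neither variety.

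The polymerase locus that fell was Phvul.009G072333, described only as a DNA-directed DNA polymerase. It had 1.9, 1.05 and 1.01 FPKM in 120 cold, against 10.7, 9.42 and 9.60 FPKM in 120 control. It had 1.38, 1.07 and 0.805 FPKM in 093 cold, against 4.75, 7.34 and 7.29 FPKM in 093 control. All cold libraries were below all controls of their variety. The log2 change was -2.25 (SE 0.20, adjusted p = 9.8e-07) in 120 and -1.83 (SE 0.20, adjusted p = 5.3e-06) in 093. The neighbour in gene numbering, Phvul.009G072300, an endoplasmic reticulum calcium ATPase that also carries the replication entry, fell by 2.16 in 120 and by 2.55 in 093 on the same scale. The table gives no coordinates, so whether both loci share reads was not tested. The ATPase locus was chosen after its values were seen.

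Primer removal and ligation held pairs of related loci with unlike changes. The 5'-3' exonuclease family locus Phvul.007G206500 had 14.7, 14.3 and 17.5 FPKM in 120 cold, against 2.25, 1.80 and 2.49 FPKM in 120 control. It had 10.3, 11.3 and 10.1 FPKM in 093 cold, against 1.23, 1.10 and 1.24 FPKM in 093 control. Its cold and control libraries were well separated, and it rose by 2.38 (SE 0.13, adjusted p = 2.8e-08) in 120 and 2.40 (SE 0.13, adjusted p = 2.5e-08) in 093. The family member Phvul.003G296200 had 5.75, 4.51 and 5.50 FPKM in 120 cold, against 5.68, 7.01 and 6.64 FPKM in 120 control. It had 3.13, 3.52 and 3.46 FPKM in 093 cold, against 9.95, 11.6 and 9.87 FPKM in 093 control. In 120 the groups overlapped, and in 093 the cold libraries were all lower. It was not called in 120, at -0.25 (SE 0.13, adjusted p = 0.11), and fell by 1.39 (adjusted p = 1.9e-06) in 093, with a difference of 1.14 (SE 0.19, adjusted p = 0.0011).

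DNA ligase 1, which seals nicks between fragments, also had a pair of loci. MSTRG.5534, which carries 2 gene names, had 3.36, 2.96 and 2.91 FPKM in 120 cold, against 15.9, 13.4 and 16.0 FPKM in 120 control. It had 1.80, 1.49 and 2.11 FPKM in 093 cold, against 15.4, 15.6 and 16.7 FPKM in 093 control. Cold libraries were low throughout, and it fell, with log2 changes of -1.98 (SE 0.13, adjusted p = 8.7e-08) in 120 and -2.60 (SE 0.13, adjusted p = 1.1e-08) in 093. Because it spans more than 1 gene name, its fall cannot be given to the ligase alone. The locus with a single gene name, Phvul.011G085900, averaged 3.07 ± 0.540 FPKM in 120 cold and 2.56 ± 0.286 FPKM in 120 control, and 3.08 ± 0.166 FPKM in 093 cold and 1.89 ± 0.367 FPKM in 093 control. Its changes, 0.19 and 0.50, were not called. DNA ligase 6 (Phvul.008G009200), a plant repair ligase, averaged 1.63 ± 0.0404 FPKM in 120 cold and 4.55 ± 0.303 FPKM in 120 control and fell, at -1.07 (SE 0.13, adjusted p = 1.5e-05). In 093 it averaged 3.16 ± 0.359 FPKM under cold and 3.37 ± 0.419 FPKM without, and was not called at -0.07. The difference of -1.01 (SE 0.18, adjusted p = 0.0021) was fragile, ending under scaling to equal totals (-0.91), under median-ratio scaling (-0.80), under quantile normalization (-0.79), without 120 cold library 2 (-0.99), without 120 control library 1 (-0.97), without 120 control library 3 (-0.99), without 093 cold library 1 (-0.97), without 093 cold library 3 (-0.96) and without 093 control library 2 (-0.93). The ligase loci other than MSTRG.5534 were chosen after their values were seen.

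**Figure D4:**
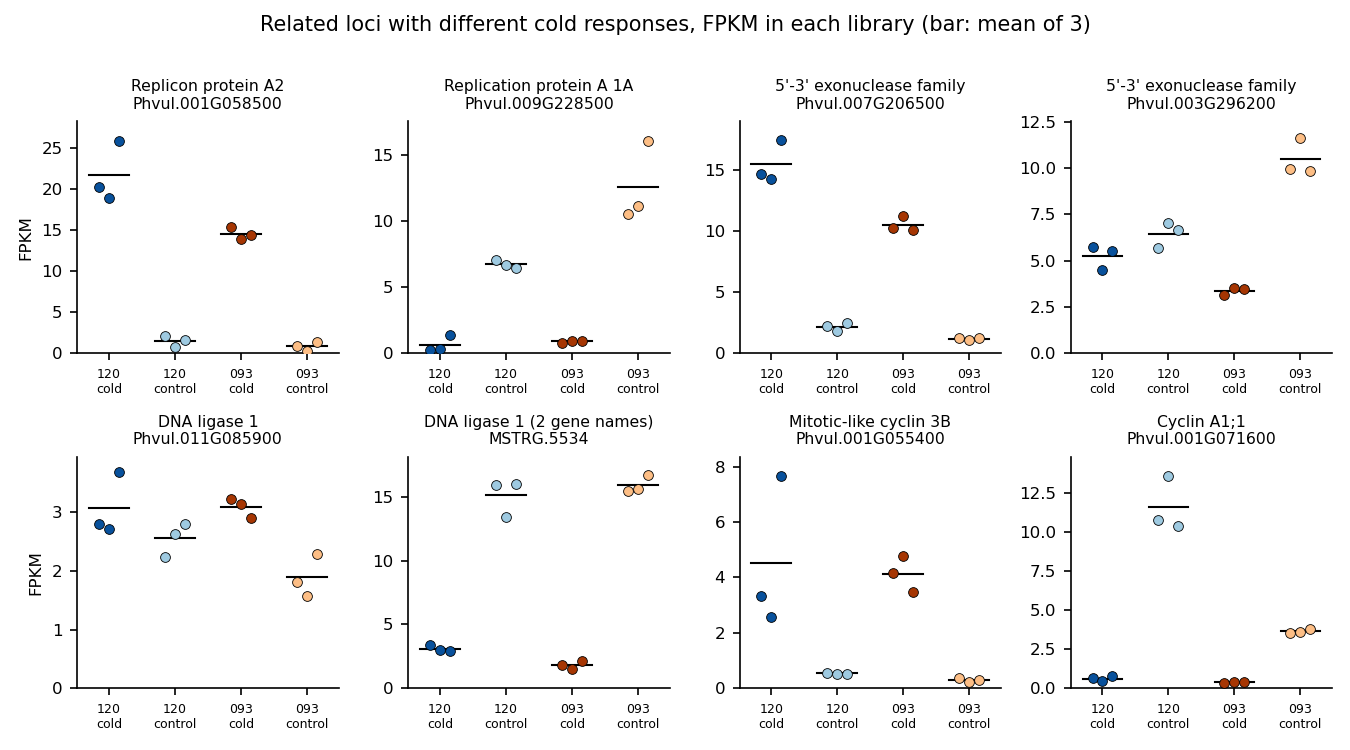
FPKM (vertical axis, linear, own scale per panel) of 4 pairs of related loci in each library of 120 cold, 120 control, 093 cold and 093 control, with bars at group means. RPA2, 1 exonuclease locus and the mitotic-like cyclin 3B are high in the cold libraries, whereas RPA 1A, the ligase 1 locus with 2 gene names and cyclin A1;1 are high in the controls.

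Histones, the proteins around which DNA is wound, showed few calls. Most of the 24 core histone loci are described only as histone superfamily proteins, so H2A, H2B, H3 and H4 could mostly not be told apart. Reads of near-identical histone copies may also have been divided between loci in the authors' counting. The most abundant was Phvul.001G253700, with 297, 209 and 295 FPKM in 120 cold, against 481, 288 and 503 FPKM in 120 control. It had 262, 222 and 259 FPKM in 093 cold, against 388, 378 and 294 FPKM in 093 control. It was not called, with log2 changes of -0.64 (SE 0.23, adjusted p = 0.026) in 120 and -0.51 (SE 0.23, adjusted p = 0.064) in 093. Its neighbour in numbering, Phvul.001G253800, averaged 143 ± 46.2 FPKM in 120 cold and 67.8 ± 3.58 FPKM in 120 control. It averaged 126 ± 46.8 FPKM in 093 cold and 112 ± 37.0 FPKM in 093 control. It rose in 120 by 1.01 (SE 0.32, adjusted p = 0.013), a call that ended under median-ratio scaling (0.82), under quantile normalization (0.80), without 120 cold library 1 (0.79), without 120 cold library 2 (0.97), without 120 control library 2 (0.99) and without 120 control library 3 (just short of 1.0), and changed by 0.15 in 093. Phvul.001G009100 averaged 86.8 ± 17.2 FPKM in 120 cold and 43.9 ± 5.32 FPKM in 120 control, and 99.0 ± 3.64 FPKM in 093 cold and 37.3 ± 6.54 FPKM in 093 control. It rose in 093 by 1.40 (SE 0.17, adjusted p = 1.6e-05) and was not called in 120, at 0.96, though without 120 cold library 3 it was, at 1.13 (adjusted p = 7.5e-05). The call in 093 ended under median-ratio scaling (0.96) and under quantile normalization (0.89).

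The histone that rose in both varieties was scarce. Phvul.009G161500 had 3.75, 4.00 and 5.61 FPKM in 120 cold, against 0.507, 0.202 and 0.168 FPKM in 120 control. It had 5.30, 5.67 and 3.90 FPKM in 093 cold, against 0.479, 0.120 and 0.601 FPKM in 093 control. Nearly absent without cold, it rose by 2.07 (SE 0.20, adjusted p = 2.2e-06) in 120 and by 2.09 (SE 0.20, adjusted p = 1.9e-06) in 093. The H2A protein 9 locus Phvul.009G199100, the highest locus named as H2A, averaged 2.28 ± 1.78 FPKM in 120 cold and 0.714 ± 0.119 FPKM in 120 control, and 2.59 ± 1.03 FPKM in 093 cold and 1.12 ± 0.307 FPKM in 093 control. It was not called. Summed over all 24 loci, core histones stood at 597, 479 and 479.7 FPKM in 120 cold, against 599, 415 and 628 FPKM in 120 control. They stood at 519, 417 and 546 FPKM in 093 cold, against 521, 517 and 513 FPKM in 093 control, with overlap between cold and control in both varieties. The linker histone H1-3 (Phvul.002G110800), which binds DNA between nucleosomes, had 1.28, 5.17 and 0.454 FPKM in 120 cold, against 1.96, 2.63 and 3.19 FPKM in 120 control. It had 3.72, 2.80 and 2.71 FPKM in 093 cold, against 9.31, 11.1 and 8.08 FPKM in 093 control. The 093 controls were the highest libraries. H1-3 fell by 1.36 in 093 (adjusted p = 0.0094) and was not called in 120 at -0.38 (SE 0.40, adjusted p = 0.42), and the difference of 0.98 was not called (adjusted p = 0.21). Without 120 cold library 3 its change in 120 was 0.08 and its difference was called, at 1.44 (SE 0.47, adjusted p = 0.033).

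Cyclins of the A and B types act from DNA synthesis into mitosis, and 10 of the 14 loci stayed below the filter. All 4 loci described as B-type cyclins were below the filter, with 1.66 FPKM as the highest value in any library. The 4 tested loci were A-type or mitotic-like. Cyclin A1;1 (Phvul.001G071600) had 0.672, 0.438 and 0.762 FPKM in 120 cold, against 10.8, 13.6 and 10.4 FPKM in 120 control. It had 0.332, 0.399 and 0.415 FPKM in 093 cold, against 3.58, 3.58 and 3.78 FPKM in 093 control. It was low in every cold library, and without cold it was higher in 120 than in 093. Cyclin A1;1 fell, with log2 changes of -2.95 (SE 0.14, adjusted p = 8.7e-09) in 120 and -1.75 (SE 0.14, adjusted p = 4.5e-07) in 093, and with a difference of -1.20 (SE 0.20, adjusted p = 0.0011) between them that was lost under quantile normalization (-0.97). Without cold, 120 exceeded 093 by 1.43 (SE 0.14, adjusted p = 2.2e-05). The mitotic-like cyclin 3B locus Phvul.001G055400 went the other way, with 3.32, 2.56 and 7.67 FPKM in 120 cold, against 0.565, 0.531 and 0.515 FPKM in 120 control. It had 4.15, 4.77 and 3.48 FPKM in 093 cold, against 0.388, 0.241 and 0.298 FPKM in 093 control. Every cold library was above every control, 120 cold library 3 most of all. It rose by 1.73 (SE 0.27, adjusted p = 1.0e-04) in 120 and by 1.97 (SE 0.27, adjusted p = 3.4e-05) in 093. The pair of cyclin A3;4 loci, including Phvul.001G025700 at 4.12 ± 0.446 FPKM in 120 cold and 3.65 ± 0.676 FPKM in 120 control, was not called in either variety.

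D-type cyclins, which carry growth signals into the start of the cycle, changed in a way that differed by locus and by variety. Of 18 loci 7 were tested, with 1 rise and 1 fall in 120, and 3 rises and 1 fall in 093. The rises were 14.3% in 120 and 42.9% in 093, against 27.8% and 33.0% over all tested loci. The falls were 14.3% in each, against 18.6% in 120 and 15.2% in 093. Quantile normalization left 0 rises and 1 fall in 120, and 1 rise and 1 fall in 093. Cyclin D1;1 had a pair of tested loci. Phvul.002G074800, the highest D-type locus, had 13.1, 16.4 and 11.1 FPKM in 120 cold, against 12.1, 21.8 and 12.2 FPKM in 120 control. It had 7.10, 7.17 and 7.08 FPKM in 093 cold, against 16.7, 17.5 and 28.9 FPKM in 093 control. Cold and control overlapped in 120 and were apart in 093. It fell in 093, at -1.40 (SE 0.25, adjusted p = 0.00031), was not called in 120, at -0.13 (SE 0.25, adjusted p = 0.65), and had a called difference of 1.26 (SE 0.35, adjusted p = 0.018). The second locus, Phvul.003G054801, had 1.08, 0.923 and 0.983 FPKM in 120 cold, against 3.35, 8.55 and 3.17 FPKM in 120 control. It had 1.71, 1.53 and 2.56 FPKM in 093 cold, against 1.32, 2.01 and 2.71 FPKM in 093 control. This was the reverse pattern, with a separation in 120 and overlap in 093. It fell in 120, at -1.48 (SE 0.30, adjusted p = 0.00075), and was not called in 093, at -0.03 (SE 0.30, adjusted p = 0.94). The difference of -1.45 (SE 0.42, adjusted p = 0.021) ended without 093 cold library 3 (-1.31, adjusted p = 0.055).

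The rises among D-type cyclins were of low loci. Cyclin D2;1 (Phvul.009G143200) had 2.29, 1.40 and 4.22 FPKM in 120 cold, against 1.5, 2.26 and 1.86 FPKM in 120 control. It had 5.79, 5.34 and 5.65 FPKM in 093 cold, against 1.62, 1.16 and 1.43 FPKM in 093 control. Its rise in 093 was 1.46 (SE 0.24, adjusted p = 0.00016), its change in 120 was 0.27 without a call, and the difference was -1.19 (SE 0.34, adjusted p = 0.02). That difference ended under median-ratio scaling (just short of -1.0) and without 120 cold library 2 (-0.92). The other D2;1 locus, Phvul.003G289500, averaged 3.44 ± 0.819 FPKM in 120 cold and 0.903 ± 0.189 FPKM in 120 control and rose by 1.21 (SE 0.16, adjusted p = 2.4e-05). It was not called in 093, at 0.79, and its call in 120 ended under quantile normalization (0.96). Cyclin D3;2 (Phvul.002G015500) averaged 1.40 ± 0.243 FPKM in 093 cold and 0.0191 ± 0.0331 FPKM in 093 control and rose by 1.23 (adjusted p = 4.0e-06). Cyclin D4;1 (Phvul.008G180000) averaged 4.46 ± 0.427 FPKM in 093 cold and 1.14 ± 0.452 FPKM in 093 control and rose by 1.37 (adjusted p = 6.1e-05). In 120 they changed by 0.80 and 0.82 without a call, and in 093 both calls ended under quantile normalization (0.94 for D3;2 and 0.98 for D4;1).

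Of 12 tested cyclins outside these types, 3 (25%) fell in each variety, against 18.6% in 120 and 15.2% in 093 over all tested loci. In 093, 1 (8.33%) rose, against 33.0%. After median-ratio scaling 4 fell and 0 rose in 093, and after quantile normalization 6 fell and 0 rose. Cyclin H;1 (Phvul.007G179300), the partner of the CDK-activating kinase, averaged 9.43 ± 0.488 FPKM in 120 cold and 20.6 ± 2.63 FPKM in 120 control, and 7.66 ± 0.555 FPKM in 093 cold and 21.7 ± 1.20 FPKM in 093 control. It fell, at -1.04 (SE 0.12, adjusted p = 8.0e-06) in 120 and -1.39 (SE 0.12, adjusted p = 7.0e-07) in 093, the call in 120 ending under scaling to equal totals (-0.99) and without 120 control library 1 (-0.96). A cyclin family protein (Phvul.007G143100) fell as well, at -1.20 (SE 0.19, adjusted p = 0.00016) in 120 and -1.21 (SE 0.19, adjusted p = 0.00014) in 093. The cyclin-related locus Phvul.003G065200 fell, at -1.10 (SE 0.12, adjusted p = 6.8e-06) in 120 and -1.01 (SE 0.12, adjusted p = 1.3e-05) in 093, where the call ended without 093 cold library 2 (-0.97) and without 093 control library 3 (-0.99). Only Phvul.005G049900 rose in this group of 12, in 093 at 1.14 (SE 0.22, adjusted p = 0.00064), and that call ended under median-ratio scaling (0.73) and under quantile normalization (0.68). The most abundant, MSTRG.7659, which carries more than 1 gene name, averaged 30.3 ± 5.61 FPKM in 120 cold, 46.7 ± 4.77 FPKM in 120 control, 30.8 ± 1.07 FPKM in 093 cold and 60.0 ± 6.29 FPKM in 093 control, and was not called.

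Of 7 tested CDKs, 2 (28.6%) rose in 120 and 3 (42.9%) in 093, against 27.8% and 33.0% over all tested loci. The other CDKs were not called. CDKB1;2 (Phvul.008G253500), of a plant class tied to the time around mitosis, had 3.75, 1.93 and 6.89 FPKM in 120 cold, against 0.471, 0.50 and 0.800 FPKM in 120 control. It had 2.55, 1.91 and 2.38 FPKM in 093 cold, against 0.282, 0.132 and 0.245 FPKM in 093 control. Cold libraries were all above controls, and it rose by 1.60 (SE 0.28, adjusted p = 0.0003) in 120 and 1.42 (SE 0.28, adjusted p = 0.00067) in 093. CDKD1;1 (Phvul.004G152000), a CDK-activating kinase, had 15.4, 16.8 and 18.2 FPKM in 120 cold, against 4.54, 4.27 and 5.19 FPKM in 120 control. It had 32.0, 31.8 and 29.9 FPKM in 093 cold, against 3.94, 4.17 and 6.58 FPKM in 093 control. The 093 cold libraries were the highest, and it rose by 1.65 (SE 0.16, adjusted p = 2.2e-06) in 120 and 2.48 (SE 0.16, adjusted p = 8.2e-08) in 093. Its relative CDKD1;3 (Phvul.002G326800) was not called, at -0.60 and -0.10 in 120 and 093. CDKC;1 (Phvul.008G205500), of a class that acts on transcription, had 9.38, 8.04 and 10.7 FPKM in 120 cold, against 6.21, 7.67 and 6.99 FPKM in 120 control. It had 20.03, 18.7 and 20.9 FPKM in 093 cold, against 5.10, 6.74 and 7.99 FPKM in 093 control. It rose in 093 by 1.47 (SE 0.16, adjusted p = 5.0e-06) and not in 120, at 0.38 (SE 0.16, adjusted p = 0.049). The difference of -1.09 (SE 0.22, adjusted p = 0.0039) lay near the threshold and ended under scaling to equal totals (-0.98), under median-ratio scaling (-0.86), under quantile normalization (-0.89), without 120 cold library 2 (just short of -1.0) and without 093 control library 1 (-0.94). CDKE;1 (Phvul.002G275500), the highest CDK over all libraries, averaged 21.4 ± 4.16 FPKM in 120 cold, 19.2 ± 1.06 FPKM in 120 control, 18.3 ± 0.577 FPKM in 093 cold and 18.0 ± 0.554 FPKM in 093 control and was not called. The CDKD1;3 locus was chosen after its values were seen.

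Of 2 tested CDK inhibitors, 1 rose in both varieties, where 27.8% of all tested loci rose in 120 and 33.0% in 093. Phvul.008G125600, described as an inhibitor or interactor of CDKs, had 2.45, 2.27 and 1.98 FPKM in 120 cold, against 0.591, 0.142 and 0.450 FPKM in 120 control. It had 4.93, 4.13 and 4.19 FPKM in 093 cold, against 0.571, 0.736 and 0.871 FPKM in 093 control. Cold libraries were higher in each variety without overlap. It rose by 1.22 (SE 0.15, adjusted p = 2.0e-05) in 120 and by 1.65 (SE 0.15, adjusted p = 1.6e-06) in 093, and the call in 120 ended under quantile normalization (0.98). The other tested inhibitor, Phvul.003G244700, was not called. Below the filter, Phvul.002G019500 had 0.211, 0.412 and 0.443 FPKM in 120 cold, against 0.212, 0.853 and 0.716 FPKM in 120 control. It had 0.501, 0.417 and 0.419 FPKM in 093 cold, against 0.960, 2.45 and 5.35 FPKM in 093 control. The 093 controls were widely spread. Both of these inhibitors were chosen after their values were seen.

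The rule also took in loci whose descriptions name other functions. FKBP53 (Phvul.002G035700), a histone chaperone in Arabidopsis that carries the pathway entry, averaged 14.4 ± 4.48 FPKM in 120 cold and 2.65 ± 0.149 FPKM in 120 control, and 22.7 ± 0.847 FPKM in 093 cold and 2.27 ± 0.516 FPKM in 093 control. It rose by 2.04 (SE 0.19, adjusted p = 1.5e-06) in 120 and by 2.87 (SE 0.19, adjusted p = 9.5e-08) in 093. The most abundant FKBP, Phvul.010G024400, averaged 86.2 ± 18.8 FPKM in 120 cold and 39.5 ± 1.02 FPKM in 120 control and rose by 1.08 (SE 0.20, adjusted p = 0.00037), a call that ended under median-ratio scaling (0.89), under quantile normalization (0.78) and without 120 cold library 3 (0.91). In 093 it averaged 112 ± 3.35 FPKM under cold and 33.8 ± 10.6 FPKM without and rose by 1.74 (SE 0.20, adjusted p = 7.5e-06). NF-YC10 (Phvul.011G077500), a transcription factor subunit with a histone-like fold, averaged 9.13 ± 0.789 FPKM in 120 cold and 0.961 ± 0.162 FPKM in 120 control and rose by 2.37 (SE 0.14, adjusted p = 3.5e-08). It averaged 8.66 ± 0.736 FPKM in 093 cold and 0.499 ± 0.143 FPKM in 093 control and rose by 2.69 (SE 0.14, adjusted p = 1.4e-08). Of 10 tested NF-Y loci, 2 rose and 1 fell in 120, and 4 rose in 093 with 0 called lower. After median-ratio scaling or quantile normalization the NF-Y rises came to 1 in 120 and 2 in 093, with the falls as before. The word cyclin also matched cycling DOF factors, which are clock-linked repressors of flowering genes in Arabidopsis and not cyclins. Cycling DOF factor 2 (Phvul.008G037000) had 0.785, 3.79 and 2.09 FPKM in 120 cold, against 3.72, 2.93 and 3.36 FPKM in 120 control, and 10.7, 7.17 and 10.8 FPKM in 093 cold, against 0.761, 1.02 and 1.94 FPKM in 093 control. Cycling DOF factor 3 (Phvul.003G189300) had 2.13, 0.161 and 3.62 FPKM in 120 cold, against 9.89, 6.28 and 8.42 FPKM in 120 control, and 2.61, 3.24 and 3.39 FPKM in 093 cold, against 2.30, 1.54 and 1.21 FPKM in 093 control. For factor 2 the 093 cold libraries were above all others, and for factor 3 the 120 controls were.

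The varieties responded differently to cold at 23 members, of which 20 had the more negative change in 120 and 3 the more positive. After scaling to equal totals 14 differences were negative and 3 positive, after median-ratio scaling 12 and 5, and after quantile normalization 13 and 4. Of all loci called for a difference, 33.1% were positive as deposited, 40.9% at equal totals, 49.9% after median-ratio scaling and 50% after quantile normalization. Over all tested loci, 19.6% had a called difference, 13.1% negative and 6.50% positive, so the share of members, 16.7%, was slightly below the background. The median difference was -0.17 over the members and -0.23 over all loci. Of the 23, 4 were replication machinery loci, namely MSTRG.3922, polymerase gamma 2, DNA ligase 6 and an exonuclease. Cyclins gave 4, CDKs gave 1, and loci without a description or described by another function gave the other 14. The machinery share was 10% of 40 tested loci, against 19.6% over all tested loci. Without 120 cold library 3, 6 machinery loci had a called difference, 5 negative and 1 positive, and the machinery median moved from -0.12 to -0.34. The largest differences were those of the cycling DOF factors 2 and 3, at -2.79 (SE 0.45, adjusted p = 0.001) and -2.45 (SE 0.56, adjusted p = 0.0073). DCAF1 (Phvul.009G099700), a substrate receptor of ubiquitin ligases under the pathway entry, had 10.6, 8.52 and 10.5 FPKM in 120 cold, against 9.92, 9.75 and 11.03 FPKM in 120 control. It had 21.8, 18.7 and 22.9 FPKM in 093 cold, against 6.34, 5.24 and 7.00 FPKM in 093 control. Its groups overlapped in 120 and were apart in 093. It rose in 093 by 1.62, changed by -0.05 in 120, and had a difference of -1.68 (SE 0.19, adjusted p = 0.00015). Loci described as H3 K4-specific methyltransferases of the SET7/9 family were unlike each other. Phvul.009G123000 averaged 9.76 ± 0.584 FPKM in 120 cold and 1.47 ± 0.610 FPKM in 120 control, and 2.54 ± 0.295 FPKM in 093 cold and 0.855 ± 0.0929 FPKM in 093 control, and its difference was 1.22 (SE 0.24, adjusted p = 0.0035). Phvul.003G226200 averaged 1.93 ± 0.296 FPKM in 120 cold and 8.08 ± 1.58 FPKM in 120 control, and 5.53 ± 0.504 FPKM in 093 cold and 8.66 ± 1.93 FPKM in 093 control, and its difference was -1.07 (SE 0.25, adjusted p = 0.008). That of Phvul.003G226200 ended under scaling to equal totals (-0.97), under median-ratio scaling (-0.83), under quantile normalization (-0.83), without 120 cold library 1 (just short of -1.0), without 120 control library 3 (-0.94) and without 093 control library 3 (-0.91).

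**Figure D5:**
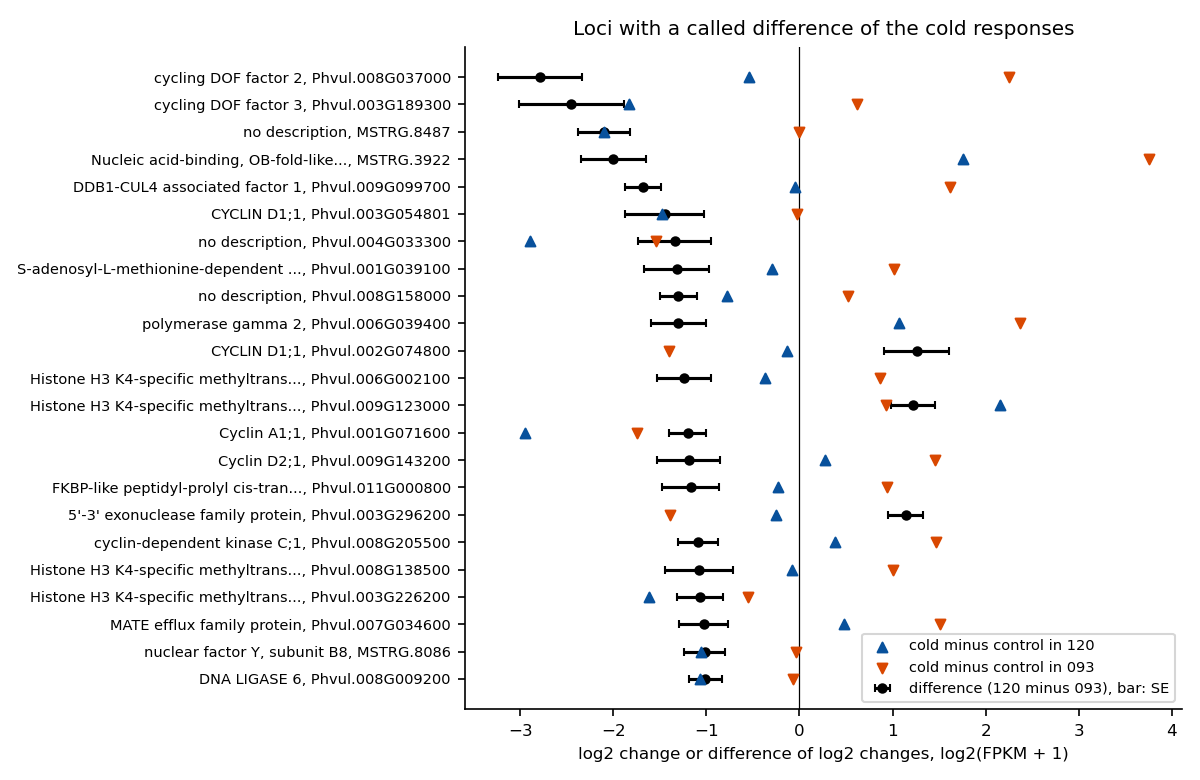
Log2 changes under cold in 120 (blue triangles) and 093 (orange triangles) and their difference, 120 minus 093, with its standard error (black points), on log2(FPKM + 1), for the 23 members with a called difference. The difference is negative for 20 of them as deposited, against 12 to 14 negative differences called after rescaling, and MSTRG.3922 and polymerase gamma 2 rose in both varieties with the larger rise in 093.

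Without cold, 9 members differed between 120 and 093, 6 higher in 120 and 3 lower, against 6.34% higher and 4.44% lower over all tested loci (10.8% in all). Of the 40 machinery loci, 1 was called, the mixed locus MSTRG.3054 that carries an aminopeptidase and a polymerase description, at -1.10 (SE 0.19, adjusted p = 0.0012). MSTRG.3054 was chosen after its values were seen. H1-3 (Phvul.002G110800) was lower in 120 control, by 1.55 (adjusted p = 0.015), but this call ended without 120 control library 1 (-1.42, adjusted p = 0.051) and without 093 control library 2 (-1.44, adjusted p = 0.056). The largest differences were of loci found mainly in 1 variety. MSTRG.8487, which has 2 gene names and no description, had 21.5, 11.6 and 15.4 FPKM in 120 control, against 0, 0 and 0.0106 FPKM in 093 control. Under cold it had 3.31, 2.28 and 3.18 FPKM in 120 and 0, 0.0149 and 0 FPKM in 093, so it was all but missing from 093. MSTRG.12121, a TIR-NBS-LRR disease resistance locus under the pathway entry, had 0.180, 0.810 and 0.632 FPKM in 120 control, against 8.22, 12.6 and 17.5 FPKM in 093 control. Under cold it had 0.157, 0.0673 and 0.0136 FPKM in 120 and 5.70, 7.01 and 5.71 FPKM in 093. Their log2 differences, 120 minus 093, were 4.06 (SE 0.19, adjusted p = 7.9e-08) and -3.13 (SE 0.24, adjusted p = 3.5e-06) without cold.

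Under cold, 16 members differed between the varieties, 4 higher in 120 and 12 lower, against 5.62% higher and 7.03% lower over all tested loci (12.6% in all). As deposited, 827 loci in all were higher in 120 and 1034 lower. Median-ratio scaling turned this to 943 higher and 800 lower, with 4 members higher and 9 lower. Quantile normalization turned it to 957 and 798, with 5 members higher and 9 lower. Of the machinery loci, MSTRG.3922 was lower in 120, at -1.52 (SE 0.25, adjusted p = 0.00083), and so was polymerase gamma 2 (Phvul.006G039400), at -1.34 (SE 0.21, adjusted p = 0.00066). DNA polymerase alpha 2 (Phvul.001G259300) was higher in 120, at 1.17 (SE 0.17, adjusted p = 0.00031), and that call ended without 120 cold library 3 (0.98). Without 120 cold library 3, 21 members were called. A locus under the pathway entry described as an S-adenosyl-L-methionine-dependent methyltransferase (Phvul.001G039100) averaged 4.01 ± 0.659 FPKM in 120 cold and 17.3 ± 2.68 FPKM in 093 cold, a difference of -1.87 (SE 0.24, adjusted p = 0.00017). These comparisons share libraries with those of cold against control and do not add independent evidence.

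Genes of the same processes outside the rule were listed by description words. Their counts stand against 27.8% higher and 18.6% lower over all tested loci in 120, and 33.0% higher and 15.2% lower in 093. Of 7 tested E2F/DP and retinoblastoma-related loci, which switch S-phase genes on and off, 4 rose in 120 and 5 in 093, with none called lower as deposited, 1 lower in 093 after median-ratio scaling and 1 lower in each variety after quantile normalization. Their median log2 change was 1.19 in 120 and 1.47 in 093. E2F3 (Phvul.007G269500) averaged 8.89 ± 1.13 FPKM in 120 cold and 1.15 ± 0.124 FPKM in 120 control, and 9.32 ± 0.594 FPKM in 093 cold and 0.803 ± 0.205 FPKM in 093 control. It rose by 2.20 in 120 and 2.52 in 093. Of 6 tested origin and licensing loci, 4 rose in 120 and 5 in 093, with medians of 1.51 and 1.79. A GINS subunit (Phvul.001G242800), a partner of the MCM ring, averaged 8.44 ± 1.95 FPKM in 120 cold and 0.159 ± 0.0713 FPKM in 120 control, and 3.60 ± 0.316 FPKM in 093 cold and 0.541 ± 0.275 FPKM in 093 control. Its rise was 3.01 in 120 and 1.59 in 093. Histone chaperones and assembly factors gave 2 rises in 120 and 3 in 093 of 4 tested, led by NAP1;2 (Phvul.009G231400) at 102 ± 10.1 FPKM in 120 cold and 29.4 ± 3.36 FPKM in 120 control, which rose by 1.76 in 120 and 2.23 in 093. Mitotic kinases gave 2 rises in 120 and 3 in 093 of 5, led by Aurora 1 (Phvul.009G112600) at 12.9 ± 2.77 FPKM in 120 cold and 0.964 ± 0.489 FPKM in 120 control, which rose by 2.84 in 120 and 2.65 in 093. Loci for the anaphase-promoting complex gave 1 rise in 120 (14.3%) and 3 in 093 (42.9%) of 7, and cohesin and SMC loci gave 1 in each of 5 (20%). The anaphase-promoting complex in 120, and cohesin and SMC loci in both varieties, were thus below the share over all tested loci. Of 3 nucleotide supply loci, 120 had 1 rise and 1 fall, and 093 had 2 rises and 1 fall.

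Kinesins and phragmoplast proteins move chromosomes and build the new cell plate. Of 23 tested, 120 had 2 rises and 8 falls, and 093 had 6 rises and 4 falls. Each variety had 2 rises after median-ratio scaling and after quantile normalization, with 9 falls in 120 under both and 7 and 8 falls in 093. Their median was -0.38 in 120 and 0.06 in 093, and after median-ratio scaling -0.51 in 120 and -0.23 in 093. A TPX2 family locus (Phvul.001G227700), named after a spindle protein, had 0, 0.256 and 0.0411 FPKM in 120 cold, against 12.0, 15.2 and 15.0 FPKM in 120 control. It had 0.141, 0.0662 and 0.263 FPKM in 093 cold, against 12.7, 3.06 and 8.59 FPKM in 093 control. It fell, at -3.78 (SE 0.34, adjusted p = 1.3e-06) in 120 and -2.81 (SE 0.34, adjusted p = 1.4e-05) in 093. Mismatch repair loci gave 2 falls of 11 in 120 (18.2%), and 1 rise and 1 fall in 093 (9.09% each). Without 120 cold library 3 there were 2 rises beside the 2 falls in 120, and after median-ratio scaling or quantile normalization 093 had 0 rises and 3 falls. Growth regulators of the GRF, GIF and TCP families gave 1 rise (14.3%) and 2 falls (28.6%) of 7 in 120, and 1 rise and 1 fall in 093 (14.3% each). TCP4 (Phvul.005G097200), named after a factor that limits cell proliferation in leaves of Arabidopsis, averaged 1.79 ± 0.439 FPKM in 120 cold and 102 ± 36.1 FPKM in 120 control. It averaged 1.99 ± 0.249 FPKM in 093 cold and 33.8 ± 4.80 FPKM in 093 control, and fell, at -5.17 (SE 0.22, adjusted p = 3.9e-09) in 120 and -3.53 (SE 0.22, adjusted p = 5.7e-08) in 093.

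Members below the filter followed no single pattern and were not tested. Of the 25 such machinery loci, 18 stayed under 1 FPKM in every library, and the highest value, 3.42 FPKM, was that of the MCM locus Phvul.003G175800 in 120 cold library 3. A locus described only as a DNA-directed DNA polymerase (Phvul.002G017900) had 1.11, 0.757 and 2.07 FPKM in 120 cold, against 0.0941, 0.238 and 0.0755 FPKM in 120 control. It had 0.929, 0.905 and 0.891 FPKM in 093 cold, against 0.0486, 0.0713 and 0.0413 FPKM in 093 control, with all cold libraries above the controls. A primase locus (Phvul.009G207100), which lays the RNA primers, had 0.516, 0.561 and 1.47 FPKM in 120 cold, against 0, 0.274 and 0.0896 FPKM in 120 control. It had 0.896, 1.17 and 0.649 FPKM in 093 cold, against 0.158, 0.0365 and 0.0115 FPKM in 093 control, and again did not overlap. CDKB2;2 (Phvul.001G000500) had 0.265, 0.264 and 0.107 FPKM in 120 cold, against 0.477, 0.331 and 0.975 FPKM in 120 control. It had 0, 0.0728 and 0.231 FPKM in 093 cold, against 0.206, 0.0506 and 0.188 FPKM in 093 control, with overlap in 093 and lower cold values in 120. Of 13 untested core histones, 9 stayed under 1 FPKM everywhere, and the highest value, 13.5 FPKM, was of Phvul.011G066200 in 1 library of 093 control, with 0 listed in the other 11. These untested loci were chosen after their values were seen.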

How the data were processed

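The deposited table gives 1 FPKM value per locus and library. Per the submitters' processing notes, cutadapt 1.9, HISAT2 2.0.4 and StringTie 1.3.4d were among the tools, with DESeq2 and edgeR named without a version. The authors' FPKM are normalized to transcript length and library size, so a few strongly changed loci can shift all others. The genome build is not given in the sources used here, and read totals are unknown.

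Members were found by annotation, and both they and the gene lists were chosen with earlier results of these data known. Loci that reached 1 FPKM in 3 or more libraries were fitted on log2(FPKM + 1), 1 being the pseudocount, with limma 3.58.1 in R 4.3.3 (variance trend, 12 libraries, 1 mean per group). Contrasts were cold against control in each variety, their difference, and 120 against 093 in each condition. Benjamini-Hochberg adjustment ran over all 14716 loci. The procedure was tested on simulated data. Named loci were, per role, the 3 called ones with the largest mean change and the most abundant one, the 5 largest in each of the other contrasts, and the called cyclins, CDKs and inhibitors. Per list outside the module, the called locus with the largest mean change was named. Other pseudocounts, filters, scalings, thresholds and fits, and leaving out each library, were tried.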

Additional observations from a re-analysis of the deposited data

Results flagged for a closer look

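At 23 members the cold responses of the varieties differed by limma's test of the difference itself (120 minus 093 on log2(FPKM + 1), 3 libraries per group), and this is what singled them out. No explanation was tested.

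The clock-linked factors of the DOF family gave the largest values, -2.79 (SE 0.45, adjusted p = 0.001) for cycling DOF factor 2 (Phvul.008G037000) and -2.45 (SE 0.56, adjusted p = 0.0073) for cycling DOF factor 3 (Phvul.003G189300). Factor 2 rose in 093 by 2.25 and changed by -0.54 in 120 without a call. Factor 3 fell in 120 by 1.83 and changed by 0.62 in 093 without a call. Of the replication machinery, the OB-fold locus MSTRG.3922 differed by -2.0, polymerase gamma 2 (Phvul.006G039400) by -1.3, the exonuclease Phvul.003G296200 by 1.14 and DNA ligase 6 (Phvul.008G009200) by -1.01. Of the cyclins, D1;1 differed by 1.26 at Phvul.002G074800 and by -1.45 at Phvul.003G054801, A1;1 (Phvul.001G071600) by -1.20 and D2;1 (Phvul.009G143200) by -1.19. The difference for CDKC;1 (Phvul.008G205500) was -1.09. Of these, the calls of DNA ligase 6, Phvul.003G054801, A1;1, D2;1 and CDKC;1 ended under at least 1 alternative.

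Among histone methyltransferases of the SET7/9 family, Phvul.006G002100 differed by -1.24 (SE 0.29, adjusted p = 0.0086), Phvul.009G123000 by 1.22, Phvul.003G226200 by -1.07 and Phvul.008G138500 by -1.08 (SE 0.37, adjusted p = 0.042). The call for Phvul.008G138500 ended under no filter on low values (-1.08, adjusted p = 0.067), under scaling to equal totals (-0.99), under median-ratio scaling (-0.95), under quantile normalization (-0.93), under the replicate block (-1.08, adjusted p = 0.064), without 120 cold library 3 (-0.78), without 120 control library 1 (-1.07, adjusted p = 0.073), without 120 control library 3 (-1.0, adjusted p = 0.089), without 093 cold library 1 (-1.15, adjusted p = 0.061), without 093 cold library 2 (-0.91), without 093 cold library 3 (-1.18, adjusted p = 0.052), without 093 control library 1 (-1.11, adjusted p = 0.064) and without 093 control library 2 (-0.92).

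The other differences were of loci with another function or no description. They were -2.10 for MSTRG.8487, which was nearly missing from 093, -1.68 for DCAF1 (Phvul.009G099700), -1.32 (SE 0.35, adjusted p = 0.014) for the methyltransferase Phvul.001G039100 and -1.3 (SE 0.20, adjusted p = 0.00079) for Phvul.008G158000. The FKBP locus Phvul.011G000800 differed by -1.17 (SE 0.31, adjusted p = 0.014), a call that ended under median-ratio scaling (-0.97). Phvul.004G033300, without a description, fell in both varieties and differed by -1.34 (SE 0.39, adjusted p = 0.023), ending without 120 cold library 2 (-1.15, adjusted p = 0.056), without 120 control library 3 (-1.26, adjusted p = 0.053), without 093 cold library 1 (-1.3, adjusted p = 0.052) and without 093 control library 2 (-0.99). The MATE efflux locus Phvul.007G034600 differed by -1.03 (SE 0.26, adjusted p = 0.011), ending under scaling to equal totals (-0.96), under median-ratio scaling (-0.83), under quantile normalization (-0.85), without 120 cold library 2 (-0.93), without 120 control library 3 (-0.92), without 093 cold library 2 (-0.97) and without 093 control library 2 (-0.88). NF-YB8 (MSTRG.8086, 2 gene names) differed by -1.02 (SE 0.22, adjusted p = 0.0052), ending under scaling to equal totals (-0.91), under median-ratio scaling (-0.79), under quantile normalization (-0.82), without 120 cold library 1 (-0.91), without 120 cold library 3 (-0.99), without 120 control library 3 (-0.93) and without 093 cold library 1 (-0.94).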

How the results depend on the processing

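No called change of a member reversed under any of the 24 alternatives (12 that leave out 1 library and 12 others) that applied to it. Of the 152 called changes, 109 kept their call under every alternative that applied and 43 lost it under at least 1. Many were judged under 22 or 23 alternatives only. Some loci fell to an alternative's filter, and differences of the responses were not refitted on the groups of the contrast alone. Calling by adjusted p alone could not end a call. With a call by adjusted p alone, 56 members were higher and 34 lower in 120, 63 higher and 27 lower in 093, 36 had a called difference of the responses, and 29 without cold and 43 under cold differed between 120 and 093. Quantile normalization, which moved the all-loci median in 093 by -0.43, gave 26 lower members there, against 14 as deposited. Over all 14716 tested loci it gave 3480 lower in 093, against 2239 as deposited. The increase was thus not particular to the members, and its cause was not tested. With pseudocounts of 0.1 and 0.5, 16 and 14 members differed between 120 and 093 without cold, against 9 with a pseudocount of 1, and changes of low loci were larger by construction. For the MCM locus Phvul.001G212600 the change was 2.95 in 120 and 3.26 in 093 with a pseudocount of 0.1. Leaving out 1 library gave 28 to 34 members higher and 17 to 20 lower in 120, 39 to 43 higher and 13 to 15 lower in 093, 17 to 27 with a difference of the responses, 8 to 12 differing between 120 and 093 without cold and 14 to 21 under cold. Same-numbered libraries did not deviate together in expression, with correlations between -0.08 and 0.049. This cannot tell whether they shared a pot or a run. With the replicate block, 31 members were higher and 18 lower in 120 and 41 higher and 14 lower in 093, 22 had a called difference of the responses, and 9 and 16 differed between 120 and 093 without and under cold. The difference lost under the block was that of Phvul.008G138500, at -1.08 (adjusted p = 0.064). The read depth behind the FPKM is unknown, so the precision of low loci is known from the spread between 3 libraries only.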

Other observations

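FKBP isomerases, which fold proteins and entered the module through the pathway entry, did not follow FKBP53. Phvul.007G225600 had 12.2, 11.9 and 10.96 FPKM in 120 cold, against 57.6, 78.2 and 58.3 FPKM in 120 control. It had 7.74, 8.20 and 7.25 FPKM in 093 cold, against 50.3, 35.9 and 41.9 FPKM in 093 control. It fell, at -2.36 (SE 0.15, adjusted p = 7.4e-08) in 120 and -2.31 (SE 0.15, adjusted p = 8.3e-08) in 093 by limma. Phvul.009G007100 fell as well, at -1.42 (SE 0.13, adjusted p = 1.5e-06) in 120 and -1.35 (SE 0.13, adjusted p = 2.1e-06) in 093. Phvul.003G064500 fell in 120, at -1.75 (SE 0.27, adjusted p = 0.00011), and was not called in 093, at -0.78.

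A pair of MATE efflux loci, transporters neighbouring each other in gene numbering, also carried the pathway entry. Phvul.007G034500 averaged 3.68 ± 1.23 FPKM in 120 cold and 0.0418 ± 0.0113 FPKM in 120 control, and 4.98 ± 0.432 FPKM in 093 cold and 0.0868 ± 0.0542 FPKM in 093 control. It rose by 2.13 (SE 0.18, adjusted p = 7.6e-07) in 120 and by 2.46 (SE 0.18, adjusted p = 2.3e-07) in 093. Phvul.007G034600 averaged 1.70 ± 0.428 FPKM in 120 cold and 0.928 ± 0.265 FPKM in 120 control, and 5.64 ± 0.575 FPKM in 093 cold and 1.35 ± 0.434 FPKM in 093 control, and was called in 093 only, at 1.51 (SE 0.18, adjusted p = 1.3e-05). These loci were chosen after their values were seen.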
